A study of Mus musculus with 15 samples.

Results

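Irradiated lung fibroblasts of Atm+/+ mice were compared with unirradiated Atm+/+ lung fibroblasts carried to passage 8. The comparison uses 6 of the 15 libraries of the series, 3 in each group, and they were taken by their labels alone. All cells were primary lung fibroblasts of C57BL/6 mice, with 3 cell strains per genotype, grown in medium with 15% serum at 3% oxygen. The irradiated cells, labelled passage 2, received 10 Gy of X-rays at 0.5 Gy per min and were harvested 10 days later, a treatment given to bring on premature senescence. The unirradiated cells at passage 8 had no treatment. Unirradiated Atm+/+ cells at passage 2, also 3 libraries, are given beside them as the level at the labelled passage of the irradiated cells, and the 6 Atm-/- libraries entered only the shared estimate of spread. The 2 groups differ in irradiation and in the number of passages, and these cannot be told apart in this comparison. The labels call the replicates separate strains. The titles WT1, WT2 and WT3 recur at passage 2 and passage 8, while the irradiated libraries are titled IR1, IR2 and IR3. No label ties an irradiated library to a numbered strain of another group, and the main fit used no pairing between any groups.

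Cells that stop dividing for good after DNA damage or long culture are called senescent. Damage activates the kinase ATM and the transcription factor p53, and p53 switches on Cdkn1a, whose product p21 blocks cyclin-dependent kinases. The Cdkn2a locus encodes p16INK4a, another inhibitor of these kinases, and ARF, which stabilises p53. With the kinases blocked, the genes needed for mitosis are repressed, many of them through a CHR element and CCAAT boxes in their promoters. Senescent fibroblasts are also known for secreting cytokines, proteases and matrix proteins, and in some settings for expressing interferon-stimulated genes.

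All 47 mitosis genes tested had lower mean levels in the irradiated cells, so the promoters of 3 of them are shown with the elements such genes carry. They are the 300 bases from 250 before to 50 after the annotated start (RefSeq, GRCm38.p6), read 5′ to 3′ along the gene. Capitals mark the CHR, searched as TTTGAA on both strands, and the box, searched as CCAAT on both strands, as 1 run where matches meet.
Cdk1, chr10:69352863-69353162, minus strand: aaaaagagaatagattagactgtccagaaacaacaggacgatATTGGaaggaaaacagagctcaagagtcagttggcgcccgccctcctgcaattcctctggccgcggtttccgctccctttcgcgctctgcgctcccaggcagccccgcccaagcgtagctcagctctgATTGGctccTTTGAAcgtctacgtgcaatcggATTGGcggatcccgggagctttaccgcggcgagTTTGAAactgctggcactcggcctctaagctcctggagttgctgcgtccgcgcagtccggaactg
Cdc20, chr4:118437294-118437593, minus strand: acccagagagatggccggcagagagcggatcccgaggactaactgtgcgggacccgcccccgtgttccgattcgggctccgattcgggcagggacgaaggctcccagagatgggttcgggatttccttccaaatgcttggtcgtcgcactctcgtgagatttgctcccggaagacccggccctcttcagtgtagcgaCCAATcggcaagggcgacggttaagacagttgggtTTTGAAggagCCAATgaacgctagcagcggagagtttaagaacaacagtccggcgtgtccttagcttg
Ccnb2, chr9:70421505-70421804, minus strand: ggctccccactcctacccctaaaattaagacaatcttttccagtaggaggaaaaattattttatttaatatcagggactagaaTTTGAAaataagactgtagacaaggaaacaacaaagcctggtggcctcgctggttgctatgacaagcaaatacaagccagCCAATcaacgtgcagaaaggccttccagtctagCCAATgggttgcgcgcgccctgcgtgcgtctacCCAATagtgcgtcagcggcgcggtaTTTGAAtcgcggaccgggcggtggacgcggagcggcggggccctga
Of the 47 listed mitosis and G2/M genes, 38 matched 40 promoters of the RefSeq table. TTTGAA was found in 29 of the 40 (72.5%), against 17.9% of all 32851 promoters of that length. CCAAT was found in 32 (80.0%) against 37.4%, and both in 27 (67.5%) against 7.0%. A match is a description of these windows and shows no binding.

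Between 30336228 and 39210772 counts were assigned to genes in the 6 libraries. At equal depth 21665 to 21978 genes were detected in the irradiated and 20101 to 20505 in the passage 8 libraries. Levels below are in TMM-normalised CPM, counts scaled to a common library size, given for replicates 1, 2 and 3 in that order, and SD is over 3 libraries. Fold changes are log2 of irradiated over passage 8 with a standard error (SE), and a gene is called when its edgeR quasi-likelihood adjusted p is under 0.05. Of 18167 genes tested 1252 (6.89%) were called, 781 (4.3%) higher and 471 (2.59%) lower in the irradiated cells. Thus 62.4% of the calls were higher, and on deposited TPM with limma the share was 79.0% of 1026 calls. Irradiated and passage 8 libraries did not overlap in 8794 genes (48.4%), so a lack of overlap alone was common and is not a call. Of the other libraries, Atm+/+ passage 2 replicate 3 and Atm-/- passage 8 replicate 3 stood apart, with the fewest genes detected at equal depth. Without them the fit of 13 libraries called 4710 of 18495 genes tested, which included all 1252. A fit of only the 6 libraries called 6214 of 17056. List counts from these fits are thus to be read against a larger share of all genes than 6.89%. Leaving out 1 library of the 6 gave 722 to 843 calls, and the number dropped by over 1.5 times without replicate 1 or 2 of either group (757 and 728 without the irradiated, 738 and 722 without the passage 8 ones).

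The higher and lower genes differed in level. Of the 781 higher genes, 461 (59.0%) had a mean under 1 CPM in passage 8 cells, and the median log2 fold change of the 781 was 3.39. Of the 471 lower genes, 28 (5.95%) had a mean under 1 CPM in irradiated cells, and their median was -0.89. At least 4-fold differences numbered 530 upward and 37 downward, and 451 of the 530 had a mean under 1 CPM at passage 8.

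**Figure D1:**
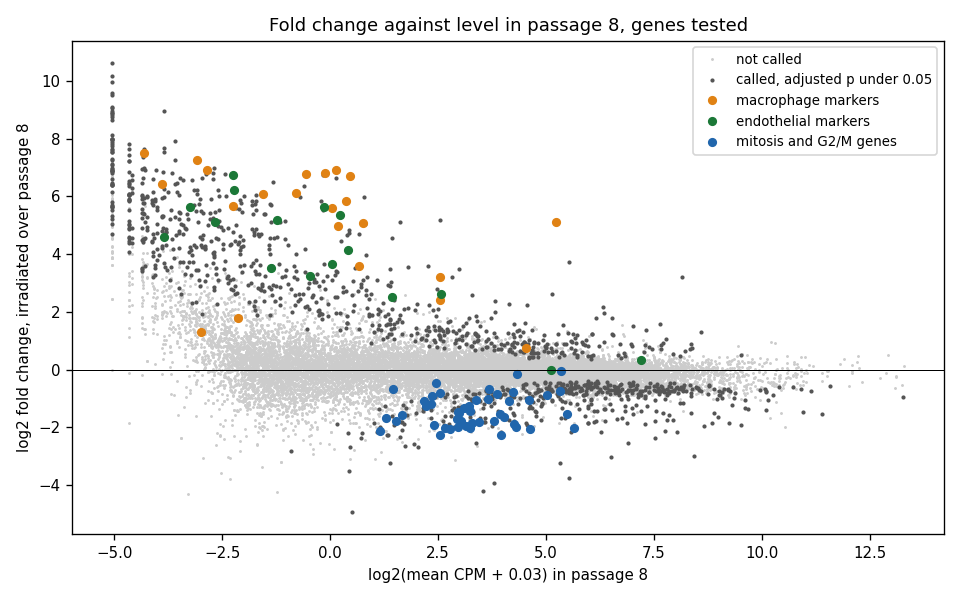
Each point is 1 of the genes tested, with log2 of its mean CPM in passage 8 cells plus 0.03 on the horizontal axis and its log2 fold change, irradiated over passage 8, on the vertical axis. Dark points were called, and macrophage, endothelial and mitosis genes are coloured. The 461 higher genes under 1 CPM in passage 8 form the cloud at upper left, where most macrophage and endothelial markers lie, and all 47 mitosis genes lie below 0.

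Among the 7 CDK inhibitors tested, 1 was higher and 1 was lower, a called share of 28.6% against 6.89% of all genes tested. Cdkn1a, which encodes p21 (chromosome 17, 29090976 to 29100727, plus strand, GRCm38), was at 1008, 924 and 899 CPM in irradiated and 408, 371 and 382 CPM in passage 8 cells. The groups were far apart, and Cdkn1a was the higher one (log2 fold change 1.29, SE 0.13, edgeR adjusted p = 5.53e-05). Cdkn2a (chromosome 4, 89274471 to 89294653, minus strand, GRCm38) was at 8.98, 6.87 and 16.2 CPM in irradiated and 53.1, 37.4 and 52.3 CPM in passage 8 cells. It went the other way, with every irradiated library below every passage 8 library (log2 fold change -2.16, SE 0.42, edgeR adjusted p = 0.00571). The counts cover the whole Cdkn2a locus, so the p16INK4a and ARF transcripts were not separated. In passage 2 cells Cdkn1a was at 253 ± 14.6 CPM and Cdkn2a at 18.1 ± 10.3 CPM (SD, n = 3). Per length, Cdkn1a averaged 874 TPM in irradiated, 311 in passage 8 and 177 in passage 2 cells. Cdkn2a averaged 22.9 TPM in irradiated, 89.1 in passage 8 and 27.1 in passage 2 cells.

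Cdkn2b, the INK4 gene next to Cdkn2a, was at 16.1, 15.5 and 19.9 CPM in irradiated and 23.2, 19 and 21.3 CPM in passage 8 cells. Its groups overlapped and it was not called (log2 fold change -0.30, SE 0.20, edgeR adjusted p = 0.521). Cdkn1b, encoding p27, was at -0.50 (edgeR adjusted p = 0.113) and Cdkn2c, encoding p18, at -1.06 (edgeR adjusted p = 0.399) on the log2 scale. Cdkn1b and Cdkn2c were called lower in the 13-library and 6-library fits. Trp53, the gene of p53 itself, was at 74.3, 69.1 and 74.9 CPM against 75.3, 71.9 and 78.2 CPM, a log2 fold change of -0.05 (edgeR adjusted p = 0.992). Atm, intact in all these cells by label, was at 1.65, 2.01 and 1.40 CPM against 1.52, 1.43 and 2.004 CPM and was not called (edgeR adjusted p = 0.997).

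Each group was also set against the passage 2 cells, in 2 comparisons that share those 3 libraries. Irradiated against passage 2 cells gave calls in 27.5% of the genes tested and passage 8 against passage 2 cells in 23.3%. Cdkn1a had a log2 fold change of 1.90 (edgeR adjusted p = 2.93e-06) in irradiated and 0.62 (edgeR adjusted p = 0.00441) in passage 8 cells. Cdkn2a had -0.76 (edgeR adjusted p = 0.180) in irradiated and 1.40 (edgeR adjusted p = 0.0259) in passage 8 cells. Cdkn1a was thus called above passage 2 in both, and Cdkn2a in the passage 8 cells, with a value below 0 that was not called in the irradiated ones. Mki67, the proliferation marker Ki-67, had -3.21 (edgeR adjusted p = 8.22e-07) in irradiated and -1.14 (edgeR adjusted p = 4.62e-04) in passage 8 cells. The order of its levels was passage 2, passage 8 and irradiated from the highest down, with no overlap between neighbouring groups.

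**Figure D2:**
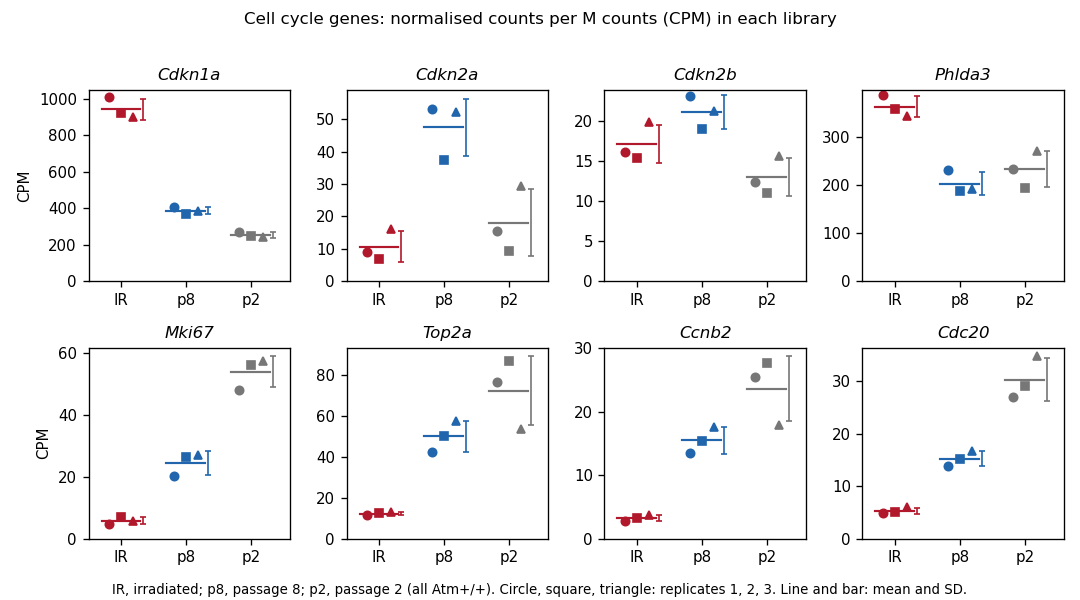
CPM (vertical axis, from 0) of 8 cell cycle genes in each library of irradiated (IR), passage 8 (p8) and passage 2 (p2) Atm+/+ cells, with the mean as a line and the SD as a bar. Cdkn1a is highest in the irradiated libraries (899 to 1008 CPM), Cdkn2a is highest in the passage 8 libraries (37.4 to 53.1 CPM), and Mki67, Top2a, Ccnb2 and Cdc20 are lowest in the irradiated libraries.

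Of the 40 p53 target genes tested, 6 were higher and 0 lower, and the median log2 fold change was 0.51, against -0.015 over all genes tested. The called share was 15%, against 6.89% of all genes tested. After Cdkn1a the lowest p was that of Ak1, an adenylate kinase, at 298, 278 and 281 CPM against 175, 164 and 162 CPM (log2 fold change 0.77, SE 0.12, edgeR adjusted p = 0.00111). Phlda3, an inhibitor of AKT signalling, was at 386, 357 and 344 CPM against 230.1, 187 and 191 CPM (log2 fold change 0.84, SE 0.16, edgeR adjusted p = 0.00491). Neither gene overlapped between groups, and both were higher in all 3 irradiated libraries. Fas, the death receptor, was at 0.81 (SE 0.18, edgeR adjusted p = 0.0120), and Ccng1, cyclin G1, at 0.84 (SE 0.21, edgeR adjusted p = 0.0285). The sixth, Trp53inp1, a stress-induced partner of p53, was at 1.13 (SE 0.32, edgeR adjusted p = 0.0496). The count was 3 or 4 when 1 of the 6 libraries was left out, and 23 higher and 4 lower in the 13-library fit. The calls lost were those of Fas without passage 8 replicate 1 or 2 (edgeR adjusted p = 0.0535 to 0.0655), Ccng1 without any 1 of the 6 libraries (edgeR adjusted p = 0.0711 to 0.131) and Trp53inp1 without any 1 of the 6 libraries (edgeR adjusted p = 0.0798 to 0.202).

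BCL2 family genes decide whether a damaged cell dies. Of the 16 tested, 0 were called by edgeR in the 15-library fit, where 2 higher and 1 lower had an unadjusted p under 0.05. DESeq2 called 2 higher and 0 lower, and the 13-library fit 3 higher and 2 lower. Pmaip1, which encodes the death promoter NOXA, was at 16.8, 17.4 and 16.96 CPM against 8.81, 8.52 and 7.47 CPM, without overlap and without a call (log2 fold change 1.05, SE 0.32, edgeR adjusted p = 0.0744). Bcl2l1, encoding the survival protein BCL-XL, was at -0.25 (edgeR adjusted p = 0.672) and Bcl2l2, encoding BCL-W, at 0.34 (edgeR adjusted p = 0.653).

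All 47 mitosis and G2/M genes had a log2 fold change below 0, with a median of -1.52, and 23 were called lower and 0 higher. In 45 of the 47 the irradiated and passage 8 libraries did not overlap, against 48.4% of all genes tested. Mki67 was at 4.78, 7.06 and 5.67 CPM in irradiated and 20.1, 26.5 and 26.98 CPM in passage 8 cells (log2 fold change -2.07, SE 0.18, edgeR adjusted p = 1.80e-05). Top2a, the topoisomerase that untangles chromosomes before division, was at 11.5, 12.4 and 12.8 CPM against 42.2, 50.3 and 57.6 CPM (log2 fold change -2.03, SE 0.18, edgeR adjusted p = 1.80e-05). The lowest passage 8 library held more than the highest irradiated library by a wide margin in both genes. Mki67 averaged 1.12 TPM in irradiated, 4.09 in passage 8 and 7.79 in passage 2 cells.

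The genes whose promoters are printed above followed the same direction. Cdk1, the kinase that drives entry into mitosis, was at 13.3, 15.9 and 16.8 CPM in irradiated and 42.1, 47.5 and 44.5 CPM in passage 8 cells (log2 fold change -1.55, SE 0.25, edgeR adjusted p = 0.00143). Its partner Ccnb2, cyclin B2, was at 2.74, 3.19 and 3.77 CPM against 13.4, 15.4 and 17.6 CPM (log2 fold change -2.26, SE 0.37, edgeR adjusted p = 0.00159). Ccnb1, cyclin B1, was at -2.28 (log2, with SE 0.45 and edgeR adjusted p = 0.00616). Cdc20, the activator of the anaphase-promoting complex, was at 4.93, 5.05 and 5.92 CPM against 13.9, 15.1 and 16.7 CPM (log2 fold change -1.52, SE 0.18, edgeR adjusted p = 1.56e-04). None of these genes overlapped between groups, and all were still read in each irradiated library.

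Cenpa and Cdca3 were also among the lower members of the mitosis list. Nuf2 and Knstrn, which are not on that list, were among the 15 largest downward changes. Cenpa, the histone variant that marks centromeres, was at 5.09, 4.89 and 5.39 CPM against 17.6, 20.6 and 18.8 CPM (log2 fold change -1.89, SE 0.22, edgeR adjusted p = 1.16e-04). Nuf2, of the outer kinetochore, was at 1.63, 1.49 and 2.18 CPM against 8.55, 10.96 and 11.8 CPM (log2 fold change -2.56, SE 0.57, edgeR adjusted p = 0.0133). Knstrn, the kinetochore protein kinastrin, was at 2.71, 4.27 and 3.33 CPM against 15.1, 16.4 and 15.1 CPM (log2 fold change -2.18, SE 0.22, edgeR adjusted p = 5.70e-05). Cdca3, a factor that helps cells enter mitosis, was at -1.65 (SE 0.15, edgeR adjusted p = 2.12e-05). The mitosis list had 16 to 20 lower calls without 1 of the 6 libraries and 42 in the 13-library fit. On TPM, limma called 10 and 11 of the 47 lower with pseudocounts of 1 and 0.1, and Cdk1 and Ccnb1 were not among them (limma adjusted p = 0.0683 and 0.0663 with a pseudocount of 1). Nuf2, outside the list, was not called on TPM either (limma adjusted p = 0.0734 with a pseudocount of 1). Nuf2 was not called without irradiated replicate 1 or 2 (edgeR adjusted p = 0.0747 to 0.0813).

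DNA replication and S phase genes were lower in fewer cases. Of 50 tested, 8 were lower and 0 higher, with a median of -0.47. Rrm2, the small subunit of ribonucleotide reductase, was at 5.27, 7.41 and 8.78 CPM against 14.8, 18.2 and 20.8 CPM (log2 fold change -1.33, SE 0.24, edgeR adjusted p = 0.00353). Uhrf1, which maintains DNA methylation at replication, was at 3.43, 3.23 and 3.94 CPM against 9.18, 9.53 and 11.01 CPM (log2 fold change -1.49, SE 0.28, edgeR adjusted p = 0.00448). Mcm10, Cdc45 and Lig1, which start replication forks and join the new strands, were at -1.56, -1.13 and -0.72 on the log2 scale (edgeR adjusted p = 0.00813, 0.00956 and 0.0173). Leaving out a library left 2 to 6 of the 8 calls, fewest without irradiated replicate 1, and the 13-library fit made 23. Both TPM fits with limma called 1 of 49 lower, without Uhrf1, Mcm10, Cdc45 or Lig1 (limma adjusted p = 0.0857, 0.144, 0.173 and 0.125 with a pseudocount of 1). Calls were lost for Mcm10 without irradiated replicate 1 (edgeR adjusted p = 0.0636), Cdc45 without irradiated replicate 1 or 3 or passage 8 replicate 2 (edgeR adjusted p = 0.0506 to 0.0711) and Lig1 without irradiated replicate 1, 2 or 3 or passage 8 replicate 2 or 3 (edgeR adjusted p = 0.0523 to 0.108). TTTGGCGC, an E2F site, searched on both strands, was in 9 of the 48 promoters matched to 40 of the listed genes (18.8%), against 0.5% of all promoters, and in 0 of the 10 promoters of the genes called.

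Calls among genes of DNA break repair (5.56%) and of the nuclear lamina and chromatin (5.26%) were near the 6.89% of all genes tested and are no result about these lists. Of 36 break signalling and repair genes, 2 were lower, Rad54l (-1.36, edgeR adjusted p = 0.0141) and Exo1 (-2.02, edgeR adjusted p = 0.0204), which act in homologous recombination and end resection. Both are under 3 CPM in every library compared, and the calls were lost for Rad54l without irradiated replicate 1, 2 or 3 or passage 8 replicate 2 (edgeR adjusted p = 0.0572 to 0.0924) and Exo1 without irradiated replicate 1 or 3 or passage 8 replicate 2 or 3 (edgeR adjusted p = 0.0729 to 0.106). Of 19 lamina, HMGB and chromatin genes 1 was lower, Hmga2, an architectural chromatin protein, at 23.9, 23.1 and 27.1 CPM against 56.7, 67.4 and 64.3 CPM (log2 fold change -1.35, SE 0.26, edgeR adjusted p = 0.00471). It stood at 15.8, 14.03 and 27.8 CPM in passage 2 cells, a range that holds the irradiated libraries. Lmnb1, lamin B1, whose loss is used as a mark of senescence, was at 4.44, 6.94 and 5.42 CPM against 9.84, 10.3 and 12.5 CPM. Its libraries did not overlap and it was not called (log2 fold change -0.96, SE 0.76, edgeR adjusted p = 0.647). Hmgb2 was at 3.72, 3.85 and 3.16 CPM against 7.69, 7.63 and 7.77 CPM, again without overlap or call (log2 fold change -1.11, SE 0.33, edgeR adjusted p = 0.0654). Glb1, which encodes the lysosomal beta-galactosidase behind the senescence stain, was at 103, 102 and 113 CPM against 139, 132 and 126 CPM and was not called (log2 fold change -0.32, SE 0.12, edgeR adjusted p = 0.172). Lmnb1, Hmgb2 and Glb1 were all called lower in the 13-library and 6-library fits, and Hmgb2 also by DESeq2. In the 13-library fit 12 repair and 8 lamina and chromatin genes were lower. That fit called 4710 of all 18495 genes tested, 2271 of them lower.

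**Figure D3:**
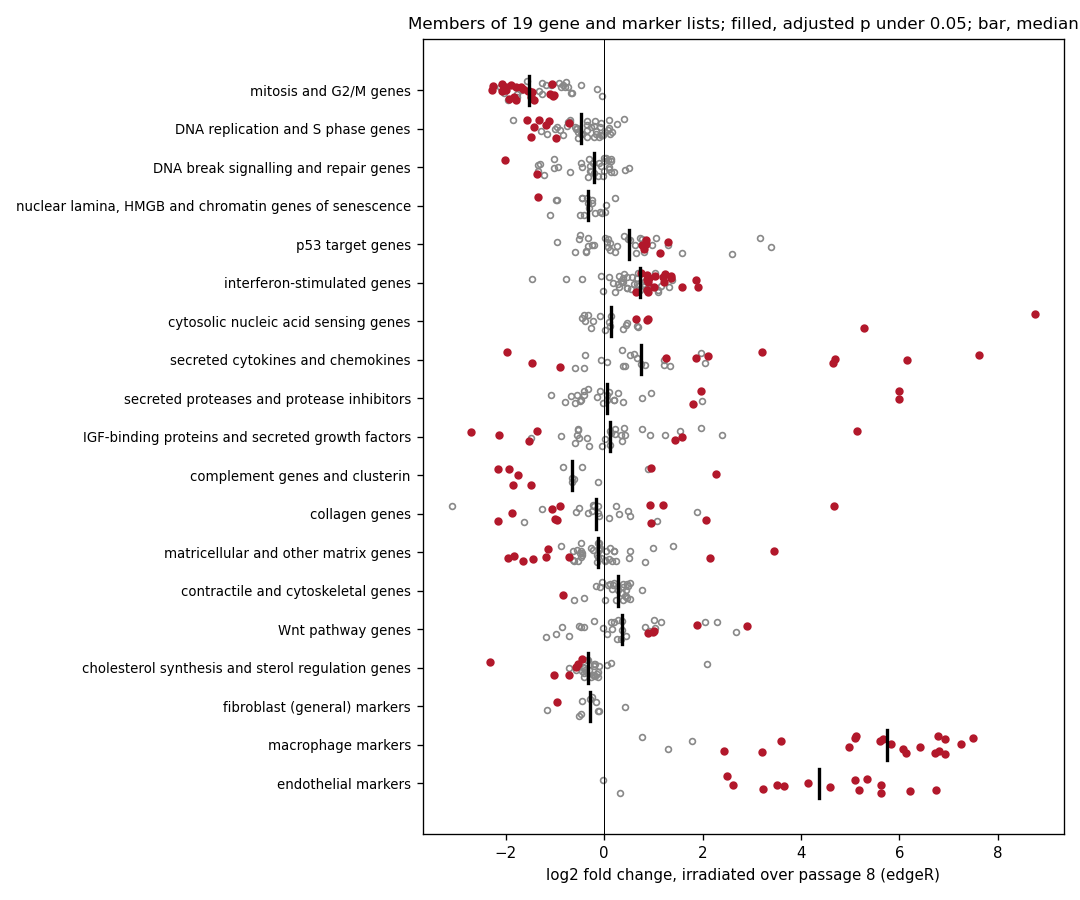
Log2 fold change, irradiated over passage 8 (horizontal axis), of the tested members of 19 gene and marker lists (vertical axis). Filled points were called, open points were not, and black bars are medians, which run from -1.52 for mitosis genes to 5.74 for macrophage markers.

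Many of the largest upward differences were in markers of cell types other than fibroblasts. Of 22 macrophage markers all were tested, and 19 were higher and 0 lower, with a median log2 fold change of 5.74. Their summed level was 2308, 1540 and 2746 CPM in the irradiated libraries and 69.9, 110.2 and 73.8 CPM in the passage 8 libraries. In the passage 2 libraries it was 3266, 2542 and 4338 CPM. Irradiated libraries were therefore nearer to passage 2 than to passage 8 cells. Between 19 and 20 of the markers were called when 1 of the 6 libraries was left out, and 21 in the 13-library fit. The 3 not called were Cd14, Cx3cr1 and Siglecf. At most 1 of the 22 was at 0 in any of the 6 libraries. In bulk RNA, fewer cells of a type and less RNA per cell cannot be told apart.

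Lyz2, lysozyme of myeloid cells, was at 1358, 940.3 and 1615 CPM in irradiated and 26.4, 53.4 and 33.4 CPM in passage 8 cells (log2 fold change 5.11, SE 0.37, edgeR adjusted p = 5.34e-06). Adgre1, which encodes the F4/80 antigen, was at 14.97, 8.78 and 18.5 CPM against 0.0574, 0.0678 and 0.137 CPM (log2 fold change 7.25, SE 0.47, edgeR adjusted p = 8.34e-06). C1qb, a chain of complement C1q made by macrophages, was at 137, 75.7 and 175 CPM against 0.689, 1.59 and 0.933 CPM (log2 fold change 6.92, SE 0.63, edgeR adjusted p = 2.23e-05). In each of these 3 genes irradiated replicate 2 was the lowest and replicate 3 the highest of the irradiated libraries. Ctss, the lysosomal protease cathepsin S, was at 71.6, 52.8 and 86.3 CPM against 0.459, 0.950 and 0.522 CPM (log2 fold change 6.78, SE 0.46, edgeR adjusted p = 3.26e-06), and Tyrobp, an adaptor of immune receptors, was at 6.13 (log2, with SE 0.37 and edgeR adjusted p = 3.26e-06). Mrc1, the mannose receptor, was at 6.08 (SE 0.46, edgeR adjusted p = 7.96e-06).

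Of 16 endothelial markers 14 were higher and 0 lower, with a median of 4.37. Summed, they stood at 452.4, 578.6 and 352.8 CPM in irradiated, 198.2, 182.6 and 205.9 CPM in passage 8, and 1167, 1565 and 958.5 CPM in passage 2 libraries. The members not called were Eng and Flt1. Pecam1, the adhesion molecule CD31, was at 39.1, 68.3 and 21.8 CPM in irradiated and 0.832, 1.19 and 0.604 CPM in passage 8 cells (log2 fold change 5.63, SE 0.56, edgeR adjusted p = 4.62e-05). Tie1, an endothelial receptor kinase, was at 18.2, 31.7 and 8.83 CPM against 0.172, 0.203 and 0.165 CPM (log2 fold change 6.75, SE 0.75, edgeR adjusted p = 1.07e-04). Emcn, endomucin, was at 6.21 and Esam, an endothelial adhesion molecule, at 4.14 on the log2 scale (edgeR adjusted p = 1.70e-04 and 1.07e-04). The count was 12 to 14 when 1 library was left out and 15 in the 13-library fit. One member was at 0 in passage 8 replicate 2 and none in the other 5 libraries.

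The marker lists ordered the irradiated libraries differently. Of the 19 macrophage markers called, 18 were highest in irradiated replicate 3 and lowest in replicate 2. All 14 endothelial markers called were highest in replicate 2 and lowest in replicate 3. Over all genes tested those orders were held by 19.4% and 20.4%. Among the 461 higher genes under 1 CPM in passage 8 cells they were held by 41.4% and 29.5%, and among the other 320 higher genes by 16.6% and 37.2%. The summed markers had the same order of replicate numbers in the passage 2 libraries, 3 above 1 above 2 for macrophages and 2 above 1 above 3 for endothelium. The endothelial order over the irradiated libraries was also that of Cxcl14, Il11, Serpine2, Igfbp5, Pdgfb, Cd55, Cd59a, Col15a1, Col23a1, Bmp2, Wnt5a, Traf1, Nos2, Fas, Oas1a, Rgs5, Pgd and Prdx6. The macrophage order was also held by genes called lower in the irradiated cells. Among them were Cdkn2a, Cxcl12, Igfbp4, Igfbp6, Col8a1, Thbs2, Fbln1, Pcolce, Lpl and Gpc3, so that order was not particular to macrophage genes. How much of any difference in the genes named here or below follows these markers was not tested.

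**Figure D4:**
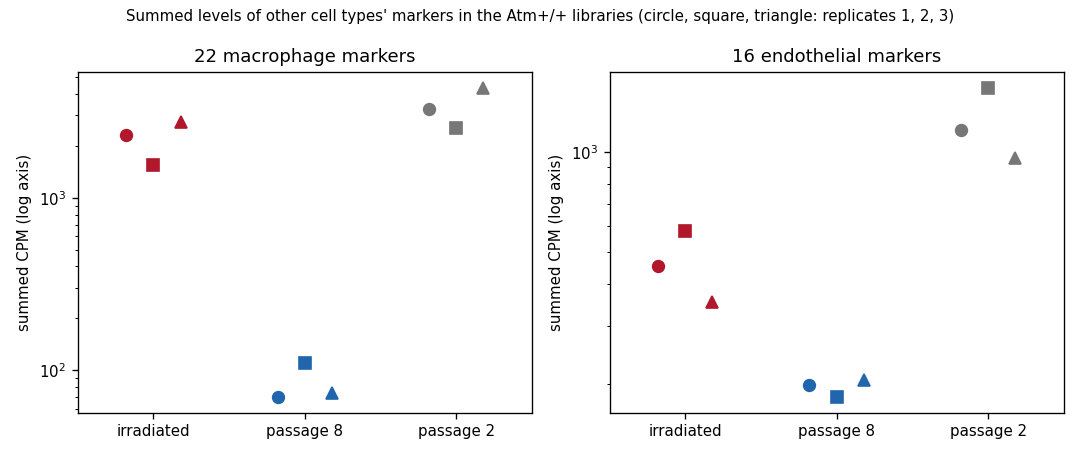
Summed CPM (vertical axis, log scale) of 22 macrophage markers on the left and 16 endothelial markers on the right, in each Atm+/+ library. Macrophage markers are at 1540 CPM or more in the irradiated and passage 2 libraries and at 110.2 CPM or less in passage 8, and the replicates keep their order from passage 2 to irradiated libraries.

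The 15 genes with the largest upward fold changes by the rule for named genes were at or near 0 in passage 8 cells. Nts, the peptide neurotensin, was at 4.03, 6.40 and 2.79 CPM in irradiated cells and at 0 in all passage 8 libraries, at least 151.4-fold higher against a floor of 3 counts over the group. Gimap4, a GTPase of lymphocytes and endothelium, was at 2.76, 4.08 and 1.48 CPM against 0, at least 95.7-fold higher. Podxl, podocalyxin, was at 13.6, 25.7 and 7.60 CPM against 0.0287, 0.237 and 0.110 CPM, and Gpihbp1, which carries lipoprotein lipase across capillary endothelium, at 14.02, 21.97 and 8.72 CPM against 0.258, 0 and 0.110 CPM. These 4 had their highest irradiated level in replicate 2 and their lowest in replicate 3. Fcrls, an Fc receptor-like gene of macrophages and microglia, was at 22.3, 14.04 and 28.8 CPM against 0.0574, 0.0339 and 0.0274 CPM. C3ar1, the receptor for the complement fragment C3a, was at 13.9, 8.59 and 18.1 CPM against 0.0574, 0.136 and 0.137 CPM, and Ccl12, a monocyte chemoattractant, at 16.9, 9.02 and 24.8 CPM against 0.0861, 0.271 and 0.110 CPM. These 3 were highest in replicate 3. The others were Ms4a7, Inpp5d, Cd300c2, Adgre1, C1qb, Cd52, C1qc and Ctss, with log2 fold changes from 6.78 to 7.91.

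General fibroblast markers were abundant in both groups. Summed over 11 genes they stood at 29990 to 34090 CPM in irradiated and 37070 to 43540 CPM in passage 8 libraries. One of them was lower, Col1a2, described with the collagens, and none was higher, a called share of 9.09% against 6.89% of all genes tested. Vim, vimentin, was at 2811, 2743 and 2788 CPM against 2063, 2078 and 2037 CPM (log2 fold change 0.43, SE 0.20, edgeR adjusted p = 0.269), and Thy1 at 747, 676 and 804 CPM against 933, 949 and 836 CPM (log2 fold change -0.29, SE 0.16, edgeR adjusted p = 0.424). Vim was called higher in the 13-library and 6-library fits, and Thy1 lower in the 6-library fit. Of the 11 genes these fits called 1 higher and 2 lower, and 1 higher and 6 lower. Of 22 markers of resident lung fibroblast types 3 were higher and 4 lower, a called share of 31.8%. Dpp4, which marks adventitial fibroblasts, was at 0.465, 0.472 and 0.978 CPM against 3.30, 3.87 and 4.17 CPM (log2 fold change -2.56, SE 0.42, edgeR adjusted p = 0.00163), and Ly6a, encoding SCA-1, was at -1.002 (SE 0.22, edgeR adjusted p = 0.0135). Cd34, also on endothelial cells, was at 23.4, 40.2 and 13.3 CPM against 1.03, 1.15 and 1.29 CPM (log2 fold change 4.46, SE 0.50, edgeR adjusted p = 1.09e-04), again with replicate 2 highest. The call of Ly6a was lost without irradiated replicate 1 or 2 or passage 8 replicate 2 (edgeR adjusted p = 0.0700 to 0.0894).

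Markers of lung epithelium, mesothelium and lymphocytes were at low sums or failed the filter. Of 19 lung epithelial markers 10 passed the filter on low counts, and 9, Epcam, Nkx2-1 and Krt5 among them, did not. The 10 summed to 9.63 to 10.3 CPM in irradiated and 13.6 to 18.01 CPM in passage 8 libraries. Krt19 was the member called, at -1.31, and its call was lost without any 1 of the 6 libraries (edgeR adjusted p = 0.0665 to 0.143). Sftpc, surfactant protein C, was at 0.0775, 0.212 and 0.307 CPM against 0.0287, 0 and 0.0274 CPM. Mesothelial markers summed to 37.4 CPM or less in the 6 libraries. Of 11 lymphocyte markers 3 passed the filter. Ptprc, the CD45 antigen shared by all leukocytes, was at 3.43, 3.19 and 4.42 CPM against 0.0574, 0 and 0.0549 CPM. Smooth muscle and pericyte markers summed to 21080 to 24300 CPM in irradiated, 15820 to 16990 CPM in passage 8 and 6426 to 7785 CPM in passage 2 libraries. They had 1 higher member of 15, a share (6.67%) near the 6.89% of all genes tested. It was Rgs5, at 2.61, 4.15 and 2.52 CPM against 0.258, 0.136 and 0.0549 CPM (log2 fold change 4.34, SE 0.69, edgeR adjusted p = 0.00131).

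Among 55 interferon-stimulated genes tested 18 were higher and 0 lower, the median log2 fold change was 0.73, and 50 of 55 values were above 0. Isg15, the ubiquitin-like modifier, was at 195, 202 and 246 CPM in irradiated and 105, 67.2 and 103 CPM in passage 8 cells (log2 fold change 1.22, SE 0.22, edgeR adjusted p = 0.00368). Ifi44 was at 33.5, 39.6 and 39.7 CPM against 9.44, 8.75 and 12.96 CPM (log2 fold change 1.86, SE 0.22, edgeR adjusted p = 1.61e-04). Neither overlapped between groups. Oas1a, which makes the activator of RNase L, was at 13.8, 14.4 and 13 CPM against 7.12, 3.77 and 5.19 CPM (log2 fold change 1.36, SE 0.24, edgeR adjusted p = 0.00313). Stat2, a transcription factor downstream of interferon receptors, was at 0.74 (SE 0.17, edgeR adjusted p = 0.0152), and Xaf1 at 0.88 (SE 0.15, edgeR adjusted p = 0.00229).

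Isg15 was at 40.3 ± 4.91 CPM and Ifi44 at 5.41 ± 1.44 CPM in passage 2 cells (SD, n = 3), below both other groups. Against passage 2 cells Isg15 was at 2.41 (edgeR adjusted p = 2.65e-05) in irradiated and 1.19 (edgeR adjusted p = 0.00194) in passage 8 cells, and Ifi44 at 2.79 (edgeR adjusted p = 8.09e-06) and 0.94 (edgeR adjusted p = 0.00898).

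The stretch of the Isg15 and Oas1a promoters that holds interferon-stimulated response elements is shown because these genes were among those called. Each is 60 bases of the RefSeq GRCm38.p6 promoter, 5′ to 3′ along the gene, with matches to the element, searched as GAAA followed after any 2 bases by another GAAA, on either strand in capitals, merged where they overlap.
Isg15, chr4:156200856-156200915, minus strand: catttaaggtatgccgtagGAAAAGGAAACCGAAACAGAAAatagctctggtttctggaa
Oas1a, chr5:120907508-120907567, minus strand: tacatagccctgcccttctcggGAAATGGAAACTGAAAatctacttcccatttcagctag
A match lay in 23 of 47 promoters of the 42 listed genes found in the table (48.9%), against 3.4% of all promoters. Among the 12 promoters of the genes called it lay in 7 (58.3%).

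The interferon count moved with single libraries. It was 14, 10 and 11 without irradiated replicates 1, 2 and 3, and 9, 6 and 15 without passage 8 replicates 1, 2 and 3, and no member was lower in those fits. Passage 8 replicate 2 was the lowest of its group for Isg15, Oas1a and Xaf1. The 13-library fit made 32 higher and 2 lower. Named calls were lost for Stat2 without irradiated replicate 3 or passage 8 replicate 1 or 2 (edgeR adjusted p = 0.0561 to 0.0937). Isg15, Ifi44, Oas1a and Xaf1 kept their calls without each library.

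Sensors of nucleic acids in the cell, which can start an interferon response, had 5 higher members of 21 and 0 lower, with a median of 0.14. Zbp1, a sensor of Z-form nucleic acids, was at 71.4, 71.7 and 94.2 CPM against 45.3, 37.5 and 45.8 CPM, and Ddx58, encoding RIG-I, at 54.2, 60.7 and 60.3 CPM against 38.02, 31.2 and 42.7 CPM. Zbp1 had a log2 fold change of 0.88 and Ddx58 of 0.65 (edgeR adjusted p = 0.0380 and 0.0344). Tlr7, an RNA receptor of immune cells, was at 1.63, 0.968 and 2.29 CPM against 0 in every passage 8 library, at least 53.4-fold higher. Aim2, a DNA sensor of the inflammasome, was at 1.73, 1.63 and 1.65 CPM against 0, 0 and 0.110 CPM (log2 fold change 5.29, SE 0.93, edgeR adjusted p = 0.00283). The fits with 1 library less lost Zbp1 without any 1 of the 6 libraries (edgeR adjusted p = 0.0673 to 0.181) and Ddx58 without irradiated replicate 1, 2 or 3 or passage 8 replicate 1 or 2 (edgeR adjusted p = 0.0636 to 0.191), and 2 or 3 calls were made without 1 library. The 13-library fit gave 8 higher and 3 lower, the 6-library fit 10 and 5, and limma on TPM 2 and 0.

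MHC class I genes display peptides to T cells. Of 19 tested 2 were higher and 0 lower, a called share of 10.5% against 6.89% of all genes tested. Tap1, a subunit of the peptide transporter, was at 52.3, 47.9 and 54.05 CPM against 28.1, 24.8 and 26.2 CPM (log2 fold change 0.96, SE 0.15, edgeR adjusted p = 0.00138). Nlrc5, the transactivator of class I genes, was at 1.62 (SE 0.41, edgeR adjusted p = 0.0298), a call lost without any 1 of the 6 libraries (edgeR adjusted p = 0.0655 to 0.160). H2-D1, a classical class I heavy chain, was at 307, 284 and 329 CPM against 223, 184 and 193 CPM and not called (edgeR adjusted p = 0.169). It was called higher in the 13-library and 6-library fits. For the whole list these fits gave 6 higher and 0 lower, and 8 higher and 2 lower.

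Secreted cytokines and chemokines had 8 higher and 3 lower members of 29, with a median of 0.74. Cxcl14, a chemokine made by fibroblasts and epithelia, was at 2745, 2944 and 2171 CPM in irradiated and 254, 289.7 and 303 CPM in passage 8 cells (log2 fold change 3.21, SE 0.46, edgeR adjusted p = 6.32e-04). It stood at 1308 ± 237 CPM (SD, n = 3) in passage 2 cells, between the 2 groups. Il11, an IL-6 family cytokine, was at 103, 131 and 92.1 CPM against 37.6, 49.4 and 48.9 CPM (log2 fold change 1.26, SE 0.25, edgeR adjusted p = 0.00706). Ccl11, eotaxin, was at 7.05, 10.5 and 8.55 CPM against 2.18, 1.80 and 3.13 CPM (log2 fold change 1.87, SE 0.27, edgeR adjusted p = 6.65e-04). Cxcl12, the ligand of CXCR4, went the other way, at 761, 578 and 839 CPM against 2067, 1914 and 1993 CPM (log2 fold change -1.46, SE 0.28, edgeR adjusted p = 0.00489). Il6, the cytokine best known in senescent secretion, was at 280.1, 327 and 321 CPM against 184, 220.3 and 239 CPM. Its libraries did not overlap, yet it was not called in the 15-library fit (log2 fold change 0.53, SE 0.50, edgeR adjusted p = 0.734). Il6 was called higher in the fits of only the 6 libraries compared, and in no other alternative fit. In passage 2 cells it was at 153, 335 and 72.3 CPM, a spread wider than in either other group.

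Several of the higher cytokines were near 0 in passage 8 cells. Tnf was at 5.11, 1.63 and 5.03 CPM against 0.0287, 0.136 and 0 CPM, and Cxcl2, a chemokine for neutrophils, at 7.90, 2.64 and 9.39 CPM against 0.258, 0.339 and 0.192 CPM. Il1a was at 0.904, 0.614 and 1.06 CPM against 3 counts in all passage 8 libraries together, a ratio of 28.4 (95% counting interval 9.46 to 140.3). Tnf and Cxcl2 were called (edgeR adjusted p = 0.00151 and 8.93e-04). In these 3 genes irradiated replicate 2 was the lowest, as in the macrophage sum of 2308, 1540 and 2746 CPM. The part of that sum in their levels was not tested. The 8 higher calls were 8 without any 1 of the 6 libraries, and the 3 lower ones 1 or 2.

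Among 27 secreted proteases and inhibitors 4 were higher and 0 lower, against 6 and 5 with an unadjusted p under 0.05, 6 and 2 by DESeq2, and 7 and 5 in the 13-library fit. The called share in the 15-library fit was 14.8%, against 6.89% of all genes tested. Timp3, a matrix-bound inhibitor of metalloproteinases, was at 341, 299 and 301 CPM against 69.2, 51.4 and 121 CPM (log2 fold change 1.96, SE 0.36, edgeR adjusted p = 0.00345). Serpine2, protease nexin-1, was at 327, 370.1 and 261 CPM against 87.7, 94.5 and 92.4 CPM (log2 fold change 1.80, SE 0.28, edgeR adjusted p = 0.00127). In passage 2 cells Timp3 was at 41.1 ± 21.4 and Serpine2 at 121 ± 54.5 CPM (SD, n = 3), so both were highest in the irradiated cells. Mmp9, a gelatinase of macrophages among other cells, was at 44.6, 23.6 and 42.9 CPM in irradiated and 0.459, 0.950 and 0.357 CPM in passage 8 cells (log2 fold change 5.995, SE 0.40, edgeR adjusted p = 3.26e-06). Mmp12, macrophage elastase, was at 112, 66.96 and 141 CPM against 0.746, 2.24 and 2.06 CPM (log2 fold change 5.99, SE 0.59, edgeR adjusted p = 3.87e-05). Both were lowest in irradiated replicate 2, like the macrophage markers.

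Binding proteins of insulin-like growth factors moved in different directions. Igfbp5 was at 525, 784 and 488 CPM against 163, 242 and 190.3 CPM (log2 fold change 1.59, SE 0.24, edgeR adjusted p = 8.93e-04). Igfbp6 was at 50.3, 34.3 and 64.1 CPM against 258, 195 and 199 CPM (log2 fold change -2.13, SE 0.29, edgeR adjusted p = 4.77e-04) and Igfbp4 at 935, 708 and 1157 CPM against 2569, 3080 and 2425 CPM (log2 fold change -1.53, SE 0.35, edgeR adjusted p = 0.0160). Igfbp5 was thus the higher and Igfbp6 and Igfbp4 the lower ones, without overlap between groups. Igfbp5 was higher still in passage 2 cells, at 1131 ± 250.2 CPM (SD, n = 3). In the whole list of growth factors and binding proteins 3 of 33 were higher and 4 lower. Pdgfb, a growth factor of endothelium for pericytes, was at 12.2, 18.2 and 7.88 CPM against 0.373, 0.170 and 0.522 CPM (log2 fold change 5.13, SE 0.67, edgeR adjusted p = 3.00e-04), with replicate 2 highest as in the endothelial sum. Vegfd, a lymphatic growth factor, was at -1.36 (SE 0.32, edgeR adjusted p = 0.0201). Calls were lost for Igfbp4 without irradiated replicate 1 or 2 or passage 8 replicate 2 (edgeR adjusted p = 0.0691 to 0.103) and Vegfd without irradiated replicate 1 or 2 or passage 8 replicate 1 or 2 (edgeR adjusted p = 0.0624 to 0.117), and the lower count was then 1 to 3.

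Of 14 complement genes tested 5 were lower and 2 higher, with a median of -0.65, while C1qb and C1qc, counted with the macrophage genes above, were higher. Clu, the secreted chaperone clusterin, was at 59.7, 37.01 and 79.4 CPM against 247, 306 and 228 CPM (log2 fold change -2.15, SE 0.35, edgeR adjusted p = 0.00165). C3, the central complement component, was at 191, 135 and 250.3 CPM against 801, 725 and 665 CPM (log2 fold change -1.93, SE 0.40, edgeR adjusted p = 0.00853). C1ra, a protease of C1, was at 65.7, 52.6 and 80.3 CPM against 229.6, 226 and 213 CPM (log2 fold change -1.75, SE 0.24, edgeR adjusted p = 5.14e-04). C1s1, the other protease of C1, was at 111, 98.4 and 138 CPM against 321, 343 and 315 CPM (log2 fold change -1.49, SE 0.21, edgeR adjusted p = 6.25e-04). C4b was at -1.86 (SE 0.43, edgeR adjusted p = 0.0174). Higher were Cd55 and Cd59a, which protect cells from complement, at 2.28 and 0.95 (edgeR adjusted p = 0.0163 and 0.0143). In passage 2 cells Clu was at 1211 ± 377 and C3 at 1659 ± 680.0 CPM (SD, n = 3), above passage 8, so that the irradiated cells were the lowest of the 3 groups. All 5 lower members were lowest in irradiated replicate 2 and highest in replicate 3. The fits with 1 library less lost C3 without irradiated replicate 2 (edgeR adjusted p = 0.0585), C4b without irradiated replicate 1, 2 or 3 or passage 8 replicate 2 (edgeR adjusted p = 0.0523 to 0.0952), Cd55 without irradiated replicate 2 or passage 8 replicate 1 or 3 (edgeR adjusted p = 0.0702 to 0.0958) and Cd59a without irradiated replicate 1 or 2 or passage 8 replicate 1 or 3 (edgeR adjusted p = 0.0520 to 0.0773).

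**Figure D5:**
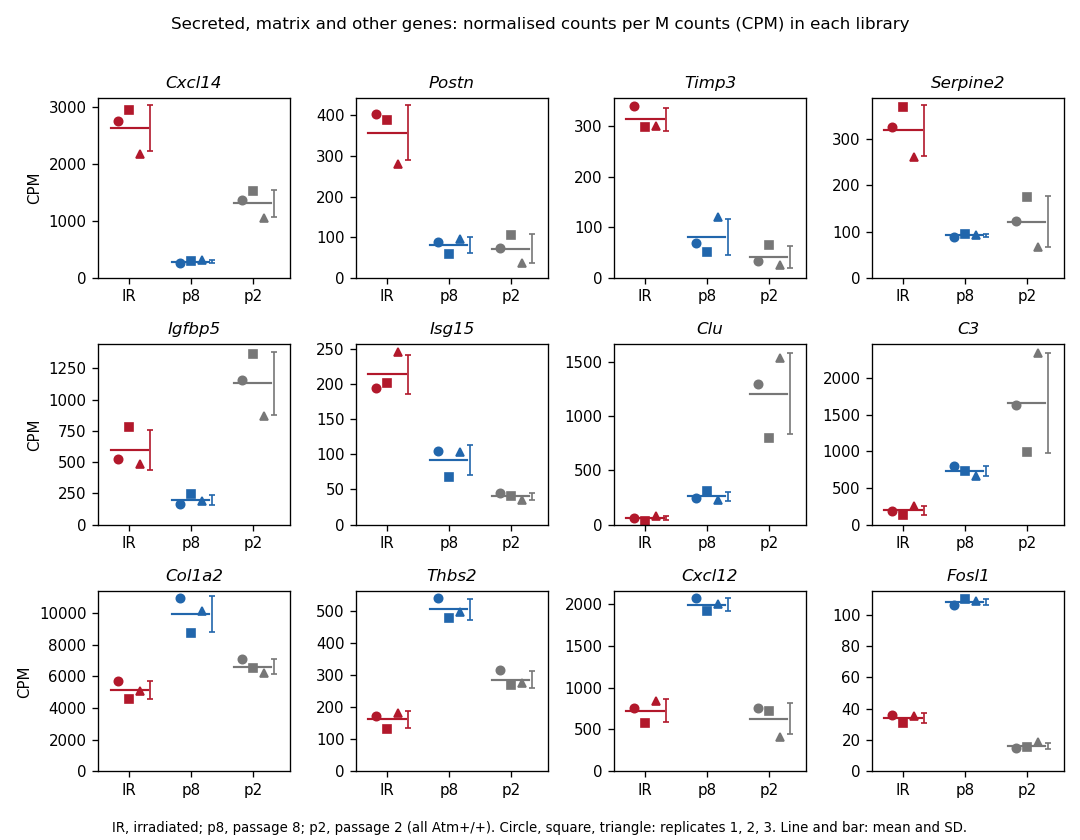
CPM (vertical axis, from 0) of 12 genes in each library of irradiated (IR), passage 8 (p8) and passage 2 (p2) Atm+/+ cells, with the mean as a line and the SD as a bar. Cxcl14, Postn, Timp3, Serpine2 and Isg15 are highest in the irradiated libraries, Clu and C3 are lowest there, and Fosl1 (106 to 110 CPM), Cxcl12, Col1a2 and Thbs2 are highest in the passage 8 libraries.

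Collagen genes were split, with 5 higher and 6 lower of 30 and a median of -0.17. Col1a2, a chain of collagen I, was at 5702, 4589 and 5075 CPM in irradiated and 10920, 8710 and 10130 CPM in passage 8 cells (log2 fold change -0.95, SE 0.17, edgeR adjusted p = 0.00261). Col1a1, the other chain, was at 7752, 6272 and 6322 CPM against 11370, 7658 and 10200 CPM, with overlap and no call (log2 fold change -0.52, SE 0.21, edgeR adjusted p = 0.199). It was called lower in the 13-library and 6-library fits. Col8a1, of the short-chain collagen VIII, was at 126, 101 and 153 CPM against 418, 501 and 466 CPM (log2 fold change -1.87, SE 0.29, edgeR adjusted p = 0.00111), and Col28a1 at 16.6, 14.1 and 21.2 CPM against 64.5, 82.6 and 85.04 CPM (log2 fold change -2.16, SE 0.40, edgeR adjusted p = 0.00415). Those genes were lower with no overlap, and Col8a1 was at 119, 71.9 and 173 CPM in passage 2 cells, a range that holds the irradiated libraries. Col15a1, a basement membrane collagen, was at 36.01, 40.7 and 22.7 CPM against 0.832, 1.02 and 2.004 CPM (log2 fold change 4.68, SE 0.49, edgeR adjusted p = 6.14e-05), with the order of the endothelial sum over the irradiated libraries, and Col23a1, a membrane collagen, was at 2.07 (SE 0.39, edgeR adjusted p = 0.00435). The higher count was 2 to 4 and the lower count 3 to 6 without 1 library.

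Enzymes and proteins that process collagen and build elastic fibres had 2 higher and 4 lower members of 32. Pcolce, which speeds the cleavage of procollagen, was at 589, 434 and 606 CPM against 1243, 1138 and 1001 CPM (log2 fold change -1.05, SE 0.20, edgeR adjusted p = 0.00413). Fbln1, fibulin-1, was at 32.6, 23.8 and 40.1 CPM against 136, 112 and 103 CPM (log2 fold change -1.86, SE 0.26, edgeR adjusted p = 5.46e-04). Efemp1, fibulin-3, was at -1.95 and Loxl3, a lysyl oxidase, at 0.90 (edgeR adjusted p = 0.0235 and 0.0245). Calls were lost for Efemp1 without irradiated replicate 1, 2 or 3 or passage 8 replicate 2 or 3 (edgeR adjusted p = 0.0506 to 0.128) and Loxl3 without any 1 of the 6 libraries (edgeR adjusted p = 0.0582 to 0.128).

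Of 46 matricellular and other matrix genes 2 were higher and 7 lower. Postn, periostin, was at 403, 389 and 282 CPM against 88.1, 57.6 and 94.9 CPM (log2 fold change 2.16, SE 0.35, edgeR adjusted p = 0.00153), and 71.7 ± 34.95 CPM (SD, n = 3) at passage 2. Thbs2, thrombospondin 2, was at 171, 132 and 182 CPM against 541, 478 and 496 CPM (log2 fold change -1.64, SE 0.21, edgeR adjusted p = 2.27e-04). Matn2, matrilin 2, was at 18.9, 16.03 and 18.2 CPM against 64.5, 63.5 and 61.4 CPM (log2 fold change -1.84, SE 0.16, edgeR adjusted p = 1.47e-05). Dpt, dermatopontin, and Smoc2, a calcium-binding matrix protein, were at -1.96 and -1.18 (edgeR adjusted p = 0.00262 and 0.00420). Periostin was thus higher while thrombospondin 2, matrilin 2 and dermatopontin were lower, each without overlap. Between 5 and 7 lower and 1 or 2 higher calls were made without 1 of the 6 libraries.

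The balance of the contractile list turned with the fit. Of 27 tested 0 were higher and 1 was lower, Srf, the transcription factor that drives such genes, at 80.9, 76.9 and 77.05 CPM against 144, 127 and 148 CPM (log2 fold change -0.84, SE 0.12, edgeR adjusted p = 7.57e-04). Acta2, smooth muscle actin and a mark of myofibroblasts, was at 12000, 10750 and 10720 CPM against 7940, 7799 and 7682 CPM, without overlap and short of the threshold (log2 fold change 0.52, SE 0.15, edgeR adjusted p = 0.0643). Tagln was at 0.48 (SE 0.16, edgeR adjusted p = 0.0945). With an unadjusted p under 0.05 there were 7 higher and 3 lower members, DESeq2 called 5 higher and 1 lower, and in the 13-library fit 9 were higher and 2 lower. Both TPM fits with limma called 3 higher and 0 lower, with Acta2 called (limma adjusted p = 0.012 with a pseudocount of 1) and Srf not (0.0831).

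YAP/TAZ targets had 1 lower member of 24 and 0 higher, against 1 lower and 2 higher by DESeq2. The called share (4.17%) was under the 6.89% of all genes tested and is no result about the list. The lower member was Asap1, at -0.51 (edgeR adjusted p = 0.0289), and the call was lost without any 1 of the 6 libraries (edgeR adjusted p = 0.0535 to 0.184). Ankrd1, a target of YAP, was at 404, 391 and 424 CPM against 498, 425 and 679 CPM and not called (log2 fold change -0.40, SE 0.18, edgeR adjusted p = 0.281).

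Signalling genes of the TGF-beta and BMP pathways had 3 higher and 4 lower members of 43, a called share of 16.3% against 6.89% of all genes tested. Without 1 library the counts were 1 to 3 and 2 to 4. Bmp2, a ligand, was at 9.04, 13.9 and 5.06 CPM against 0.287, 0.645 and 0.247 CPM (log2 fold change 4.58, SE 0.66, edgeR adjusted p = 6.52e-04), highest in replicate 2 like the endothelial markers. Tgfbr3, the co-receptor betaglycan, was at 52.9, 55.6 and 66.04 CPM against 131, 159 and 118 CPM (log2 fold change -1.22, SE 0.17, edgeR adjusted p = 4.78e-04), and Bmpr1b, a BMP receptor, at 4.31, 5.78 and 5.48 CPM against 17.04, 16.8 and 16.9 CPM (log2 fold change -1.70, SE 0.22, edgeR adjusted p = 3.00e-04). Ltbp3, which holds latent TGF-beta in the matrix, was at -0.69 (SE 0.14, edgeR adjusted p = 0.00680), and its call was lost without irradiated replicate 2 (edgeR adjusted p = 0.0570).

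Wnt pathway genes had 5 higher and 0 lower members of 32, with a median of 0.35. Wnt11 was at 18.1, 20.9 and 18.9 CPM against 2.61, 2.21 and 2.94 CPM (log2 fold change 2.90, SE 0.29, edgeR adjusted p = 4.52e-05). Wnt4 was at 5.99, 8.97 and 6.01 CPM against 1.44, 3.22 and 1.07 CPM (log2 fold change 1.88, SE 0.38, edgeR adjusted p = 0.00712), and Wnt5a at 23.8, 27.6 and 20.9 CPM against 14.1, 9.97 and 12.3 CPM (log2 fold change 0.99, SE 0.25, edgeR adjusted p = 0.0262). These are secreted ligands, and their libraries did not overlap between groups. Only Wnt11 was called without each of the 6 libraries in turn, since calls were lost for Wnt4 without passage 8 replicate 1 (edgeR adjusted p = 0.0504), Wnt5a without irradiated replicate 1 or 2 or passage 8 replicate 1, 2 or 3 (edgeR adjusted p = 0.0561 to 0.150), Wnt9a without any 1 of the 6 libraries (edgeR adjusted p = 0.0540 to 0.182) and Nkd2 without any 1 of the 6 libraries (edgeR adjusted p = 0.0756 to 0.135). The 13-library fit gave 9 higher and 4 lower.

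Of 21 AP-1 and early growth response genes 1 was higher and 3 lower. Fosl1, the AP-1 subunit FRA-1, was at 35.9, 30.5 and 35.4 CPM against 106, 110.0 and 108 CPM (log2 fold change -1.67, SE 0.13, edgeR adjusted p = 8.52e-06), and 16.3 ± 1.90 CPM (SD, n = 3) in passage 2 cells. Klf2 was at -1.14 (SE 0.18, edgeR adjusted p = 0.00129) and Nr4a2, an orphan nuclear receptor, at 1.46 (SE 0.29, edgeR adjusted p = 0.00658). Among 25 NF-kB genes 4 were higher and 2 lower. Of these Traf1, an adaptor of TNF receptors, was at 4.47, 5.24 and 3.13 CPM against 0.316, 0.136 and 0.192 CPM (log2 fold change 4.28, SE 0.72, edgeR adjusted p = 0.00207). Nos2, the inducible nitric oxide synthase, was at 3.61, 4.11 and 2.15 CPM against 0.0861, 0.339 and 0.192 CPM (edgeR adjusted p = 0.00210). Both were highest in irradiated replicate 2. Leaving out 1 library left 2 or 3 of the 4 higher and 0 to 2 of the 2 lower NF-kB calls.

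Cholesterol synthesis and uptake genes were lower in 6 of 31 and higher in 0, with a median of -0.33. Insig1, the sterol-regulated brake on SREBP, was at 29.9, 35.05 and 32.6 CPM against 63.6, 71.7 and 61.5 CPM (log2 fold change -1.01, SE 0.16, edgeR adjusted p = 0.00110), and Sqle, squalene epoxidase, at 33.7, 37.6 and 32.6 CPM against 55.3, 62.3 and 52.8 CPM (log2 fold change -0.71, SE 0.14, edgeR adjusted p = 0.00631). Both had lower values in every irradiated library. Leaving out 1 library left 3 calls of the 6. The fits with 1 library less lost Sc5d without any 1 of the 6 libraries (edgeR adjusted p = 0.0970 to 0.167). The 13-library fit gave 15 lower and 1 higher, and limma on TPM 2 lower.

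Glycolysis and hypoxia genes had 4 lower members of 28 and 0 higher, a called share of 14.3% against 6.89% of all genes tested. Hk2, hexokinase 2, was at 84.2, 84.97 and 79.5 CPM against 149, 151 and 167 CPM (log2 fold change -0.91, SE 0.14, edgeR adjusted p = 0.00128). Slc2a1, the glucose transporter GLUT1, was at 403, 349 and 372 CPM against 668, 642 and 682 CPM (log2 fold change -0.83, SE 0.20, edgeR adjusted p = 0.0213). In passage 2 cells Hk2 was at 39.5 ± 6.64 and Slc2a1 at 142 ± 35.7 CPM (SD, n = 3), so the irradiated cells lay between passage 2 and passage 8. Of 27 endoplasmic reticulum stress genes 3 were lower (11.1%), led by Pdia6, a disulfide isomerase, at 308, 303 and 324 CPM against 544, 567 and 510.2 CPM (log2 fold change -0.79, SE 0.12, edgeR adjusted p = 0.00121). Without 1 of the 6 libraries the counts were 1 or 2 of the 4 and 1 of the 3. The 13-library fit gave 10 and 14 lower, and limma on TPM 1 in each list. Of all 18495 genes tested in the 13-library fit, 2271 were lower. Calls were lost for Slc2a1 without any 1 of the 6 libraries (edgeR adjusted p = 0.0640 to 0.122).

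Lysosome and autophagy genes had 3 higher and 1 lower member of 44, a called share of 9.09% against 6.89% of all genes tested. Gpnmb, a membrane glycoprotein of lysosomes, was at 153, 115 and 196 CPM against 60.8, 64.2 and 74.7 CPM (log2 fold change 1.22, SE 0.27, edgeR adjusted p = 0.0132), lowest in replicate 2. Atp6v0d2, a proton pump subunit of osteoclasts and macrophages, was at 5.99, 5.43 and 9.56 CPM against 0.115, 0.611 and 0.137 CPM (log2 fold change 4.63, SE 0.69, edgeR adjusted p = 8.44e-04). Gaa, acid alpha-glucosidase, was at -0.70 (SE 0.15, edgeR adjusted p = 0.0116). The fits with 1 library less lost Gpnmb without irradiated replicate 3 or passage 8 replicate 1 or 2 (edgeR adjusted p = 0.0652 to 0.0748) and Gaa without irradiated replicate 2 or passage 8 replicate 1 (edgeR adjusted p = 0.0577 to 0.0873). The antioxidant list had no direction that held across fits, with a median of -0.19, 8 higher and 9 lower of 36 in the 13-library fit and 9 and 13 in the 6-library fit. Its called share in the 15-library fit was 11.1%, against 6.89% of all genes tested. In the 15-library fit 3 were higher, Pgd, Gpx3 and Prdx6, at 0.54, 0.73 and 0.50 (edgeR adjusted p = 0.00916, 0.0230 and 0.0253), and 1 was lower, Sod2, the mitochondrial superoxide dismutase, at -0.79 (edgeR adjusted p = 0.0295). Those calls were lost for Pgd without passage 8 replicate 1 (edgeR adjusted p = 0.0567), Gpx3 without any 1 of the 6 libraries (edgeR adjusted p = 0.0567 to 0.111), Prdx6 without irradiated replicate 1 or 2 or passage 8 replicate 1, 2 or 3 (edgeR adjusted p = 0.0582 to 0.118) and Sod2 without irradiated replicate 1, 2 or 3 or passage 8 replicate 1 or 2 (edgeR adjusted p = 0.0974 to 0.142). Of 13 mitochondrially encoded genes 0 were called by edgeR in the 15-library fit, 0 had an unadjusted p under 0.05 and 0 were called by DESeq2, and 1 was higher and 1 lower in the 13-library fit.

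On the TPM scale limma left out further calls at both pseudocounts, among the genes named above those of Ccng1, Trp53inp1, Exo1, Krt19, Ly6a, Zbp1, Ddx58, Cxcl12, Igfbp4, Col1a2, Loxl3, Smoc2, Asap1, Ltbp3, Wnt5a, Wnt9a, Klf2, Sc5d, Sqle, Hk2, Slc2a1, Gaa and Sod2. Their adjusted p with a pseudocount of 1 ran from 0.0512 (Wnt9a) to 0.627 (Asap1).

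The genes with the largest downward fold changes were of 2 kinds when set beside passage 2 cells. Irx1, a homeobox transcription factor, was at 0.516, 0.590 and 0.782 CPM in irradiated and 16.1, 8.38 and 10.2 CPM in passage 8 cells (log2 fold change -4.20, SE 0.69, edgeR adjusted p = 0.00175), with 0.573 ± 0.538 CPM (SD, n = 3) at passage 2. Alkal1, a ligand of the receptor ALK, was at 21.5, 19.3 and 20.6 CPM against 116, 122 and 118 CPM, with 3.71 ± 2.83 CPM (SD, n = 3) at passage 2. Ptx3, a secreted pentraxin, was at 31.96, 30.02 and 43.1 CPM against 169, 204 and 176 CPM, with 31.2 ± 7.65 CPM (SD, n = 3) at passage 2. These 3 were highest at passage 8.

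Others were high at passage 2 as well and low in the irradiated cells. Lpl, lipoprotein lipase, was at 43.9, 29.7 and 56.6 CPM against 372, 360.0 and 296 CPM (log2 fold change -2.98, SE 0.52, edgeR adjusted p = 0.00268), with 452 ± 303 CPM (SD, n = 3) at passage 2. Ces1d, a carboxylesterase, was at 0.645, 1.16 and 0.866 CPM against 12.8, 15.9 and 12.6 CPM (log2 fold change -3.94, SE 0.59, edgeR adjusted p = 8.26e-04), with 32.9 ± 10.02 CPM (SD, n = 3) at passage 2. Gpc3, a glypican that binds growth factors, was at 12.1, 7.36 and 13.5 CPM against 115, 90.3 and 64.9 CPM (log2 fold change -3.04, SE 0.43, edgeR adjusted p = 5.46e-04), with 54.1 ± 17.3 CPM (SD, n = 3) at passage 2. Clec3b, tetranectin, was at 0.206, 0.212 and 0.391 CPM against 2.70, 2.44 and 2.55 CPM, with 10.6 ± 7.48 CPM (SD, n = 3) at passage 2, and its call was lost without irradiated replicate 1 or 2 (edgeR adjusted p = 0.0501 to 0.0522). Others of the 15 were Clca3a1, Nuf2, Ccnb1, Ccnb2, Itih3, Knstrn and Col28a1, of which Itih3 lost its call without irradiated replicate 1, 2 or 3 or passage 8 replicate 1 or 2 (edgeR adjusted p = 0.0733 to 0.132). Alkal1 was not called without irradiated replicate 2 (edgeR adjusted p = 0.0549).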

How the data were processed

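RNA was sequenced from 15 libraries of mouse lung fibroblasts in 5 groups of 3. The authors deposited raw read counts for 48440 genes, made with featureCounts on mm10 with SAMtools 1.3.1, per the submitters' processing notes. The authors also deposited TPM values, transcripts scaled by length to the same total in each library. The aligner, strandedness and annotation release were not given in the sources used here. Overlapping and antisense genes can thus not be told apart. Counts of near-identical copies (Oas1a, Ces1d, Clca3a1, C1ra, C1s1, C4b, H2-D1) are uncertain. Symbols came from GENCODE vM21 (GRCm38).

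Genes were filtered with filterByExpr by group, normalised by TMM and fitted with edgeR 4.0.16 (R 4.3.3), robust quasi-likelihood, with a mean per group in all 15 libraries. The irradiated minus passage 8 contrast was adjusted by Benjamini and Hochberg at 0.05, with SE as the absolute log2 fold change over the square root of F. Replicates are strains, and p rests on the spread between replicates estimated over all 15 libraries, not only the 6 compared. The method was tested on simulated counts, with changes planted only in genes over 2 CPM at passage 8. That test did not cover the 461 of 781 higher genes under 1 CPM at passage 8. The comparison, the 29 gene lists and 8 marker lists were chosen with earlier results of these data known. The text names the 15 called genes of largest change in either direction (mean log2 CPM of at least 2, groups without overlap, no predicted genes), up to 5 of lowest p per list, 11 senescence genes, and uncalled members where a list is accounted for. Trp53inp1, Il11, Cxcl12, C4b, Cd55, Stat2 and Cdk1 were named after their values were seen. Some genes that the rule names are not reported here. A fold against 0 uses a floor of 3 counts over the group, and the Poisson-based interval covers counting error only. Alternatives were DESeq2 1.42.0, other scaling factors and filters, fits of 6, 9 or 13 libraries, limma 3.58.1 on log2(TPM + 1) and log2(TPM + 0.1), leaving out each library and a replicate block.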

Additional observations from a re-analysis of the deposited data

How the results depend on the processing

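The main count of 1252 calls (781 higher, 471 lower) rested on the spread shared by all 15 libraries. DESeq2 gave 1918 (1246 higher). Only the 6 libraries compared gave 6214 (3149 higher, 3065 lower) and the 13 libraries 4710 (2439 and 2271). On TPM with limma 215 genes were lower with a pseudocount of 1 and 199 with 0.1. That scaling moved the median of all tested genes from -0.015 to 0.141 and 0.175. Relative to that shift, only the NF-kB and lung epithelial list medians, both near 0, changed sign. Leaving out 1 library gave 722 to 843 calls, 490 to 603 higher and 188 to 310 lower. The replicate block gave 6545 calls (3322 higher, 3223 lower) in the 6 libraries and 1315 in the 9 Atm+/+ libraries, which gave 1768 without it. Same-numbered irradiated and passage 8 libraries had correlations of deviations of 0.09, 0.06 and 0.04, each above those with other numbers, a hint from the data and not from the design. No named gene changed sign with a call. Of 214 genes followed, 27 to 44 lost their call without 1 library, 42 and 44 on TPM, 15 in the replicate block of the 9 Atm+/+ libraries (Timp3 among them), and 39 more were called in the 13-library fit.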
